A study of Mus musculus with 27 samples.

Results

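The 36 genes described here encode the caspases, the mitochondrial death proteins, the inhibitors of apoptosis and the BCL2 family of the mouse, with p53 and the Fas receptor pair. They were chosen by gene name out of 51826 features in a gene expression table of the hippocampus. No measured value entered the rule, but the list was drawn up with earlier results of these data known. Of the 36, 35 had enough counts to be tested, among 19969 such genes in all. The other was Bik, a BH3-only gene, with 3 counts in 1 sham Xmo library and 0 counts in every other library.

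Gene expression was measured by RNA sequencing of whole hippocampi from ICR mice, an outbred strain. The mice had been sham operated or ovariectomized (OVX), and were given saline or xanthohumol (Xmo), a prenylated flavonoid from hops. This made 4 groups, sham saline (3 libraries) and sham Xmo, OVX saline and OVX Xmo (4 libraries each). The age of the mice, the dose and the time after surgery are not given in the sources used here, and no label ties a replicate to an animal. The p-values therefore cover the spread between these samples only, which may be technical.

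Apoptosis is a form of cell suicide in which caspases, proteases that are made as inactive precursors, cut many proteins of the cell. In the mitochondrial route, BH3-only proteins release the pore formers BAX and BAK from the protective BCL2 proteins, the outer membrane opens, and cytochrome c joins APAF1 to activate caspase-9. Neurons of the adult brain keep this route under tight control, and several of its proteins also have non-lethal roles at synapses and in mitochondrial respiration.

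The libraries held between 20848661 and 39140593 counts. Levels are given as CPM, which are counts as a share of the library after TMM scaling (a trimmed mean of log ratios), and as the deposited TPM where genes are compared with each other, since TPM takes account of transcript length. Mitochondrially encoded genes took 19.0% to 34.1% of the counts in the sham saline libraries, 14.3% to 19.2% in sham Xmo, 11.9% to 16.5% in OVX saline and 12.4% to 16.5% in OVX Xmo. Summed neutrophil markers (7 genes, 6 of them tested) were at 8.91 to 141 CPM in sham saline, against 0.52 to 6.71 in sham Xmo, 0.0813 to 1.28 in OVX saline and 3.12 to 4.03 in OVX Xmo, and 4 of the 6 fell in OVX saline. Of these markers, Retnlg was at 0 in every OVX saline library. Summed markers of endothelium (8 genes) were at 203 to 297 CPM in the sham saline group and 153 to 177 CPM for OVX saline, where 2 of the 8 fell, and 2 of 10 microglial genes rose. The endothelial sum was 173 to 209 CPM in sham Xmo and 167 to 183 CPM in OVX Xmo. In sham Xmo against sham saline, 2 of 6 neutrophil genes and 1 of 8 endothelial genes fell, and 1 of 8 oligodendrocyte genes rose. In OVX Xmo against sham saline, 1 of 6 neutrophil genes fell. No marker of neurons or astrocytes passed the test in OVX saline or sham Xmo against sham saline. Summed neuron markers were at 9313 to 11239 CPM in sham saline and 8284 to 9614 in sham Xmo. They were at 9222 to 9977 CPM in OVX saline and 9730 to 10191 in OVX Xmo. Against sham saline, 2 of 10 neuron markers had positive fold changes in sham Xmo (median log2 fold change −0.31) and 3 in OVX saline (−0.24). Summed choroid plexus markers (8 genes) ranged from 76.3 to 8443 CPM, with wide spread inside groups. The part that these differences play in the results below was not tested.

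Measured per transcript length, the 35 tested genes spanned a wide range. Cycs, which encodes cytochrome c, had the highest median over the 15 libraries (70.0 TPM), followed by the protective gene Bcl2l2 (BCL-w; 49.4 TPM), the pore-former relative Bok (43.5 TPM), the large ubiquitin ligase gene Birc6 (37.1 TPM) and Bax (35.2 TPM). Diablo (28.7 TPM) and Mcl1 (28.2 TPM) came next, close to each other. Trp53, the gene of p53, had a median of 21.4 TPM. Casp9 (9.73 TPM), Casp6 (8.48 TPM) and Casp2 (7.72 TPM) led the caspases. Bcl2 itself was low (2.83 TPM), and the lowest tested genes were Fadd (0.863 TPM), Casp12 (0.643 TPM) and Casp4 (0.638 TPM), which rest on few reads.

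Of the 35 genes, 4 rose and 2 fell in OVX saline against sham saline (Casp2, Bax, Diablo and Aifm1 up, Mcl1 and Casp12 down). This is 6 of 35, where 6.24% of all tested genes passed (3.65% up and 2.59% down). In sham Xmo against sham saline 3 of 35 rose (Casp2, Diablo and Aifm1) and none fell, where 1.51% of all tested genes passed (0.721% up and 0.791% down). Against the same sham saline libraries, OVX Xmo had 1 of 35 higher (Casp2), where 1.19% of all tested genes passed (0.746% up). No gene of the list passed in OVX Xmo against OVX saline or in OVX Xmo against sham Xmo, where 0% and 0.01% of all tested genes passed by edgeR. The first 3 comparisons share the sham saline libraries, so they are not separate pieces of evidence. In bulk tissue, fewer cells of a type and less RNA per cell cannot be told apart.

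**Figure D1:**
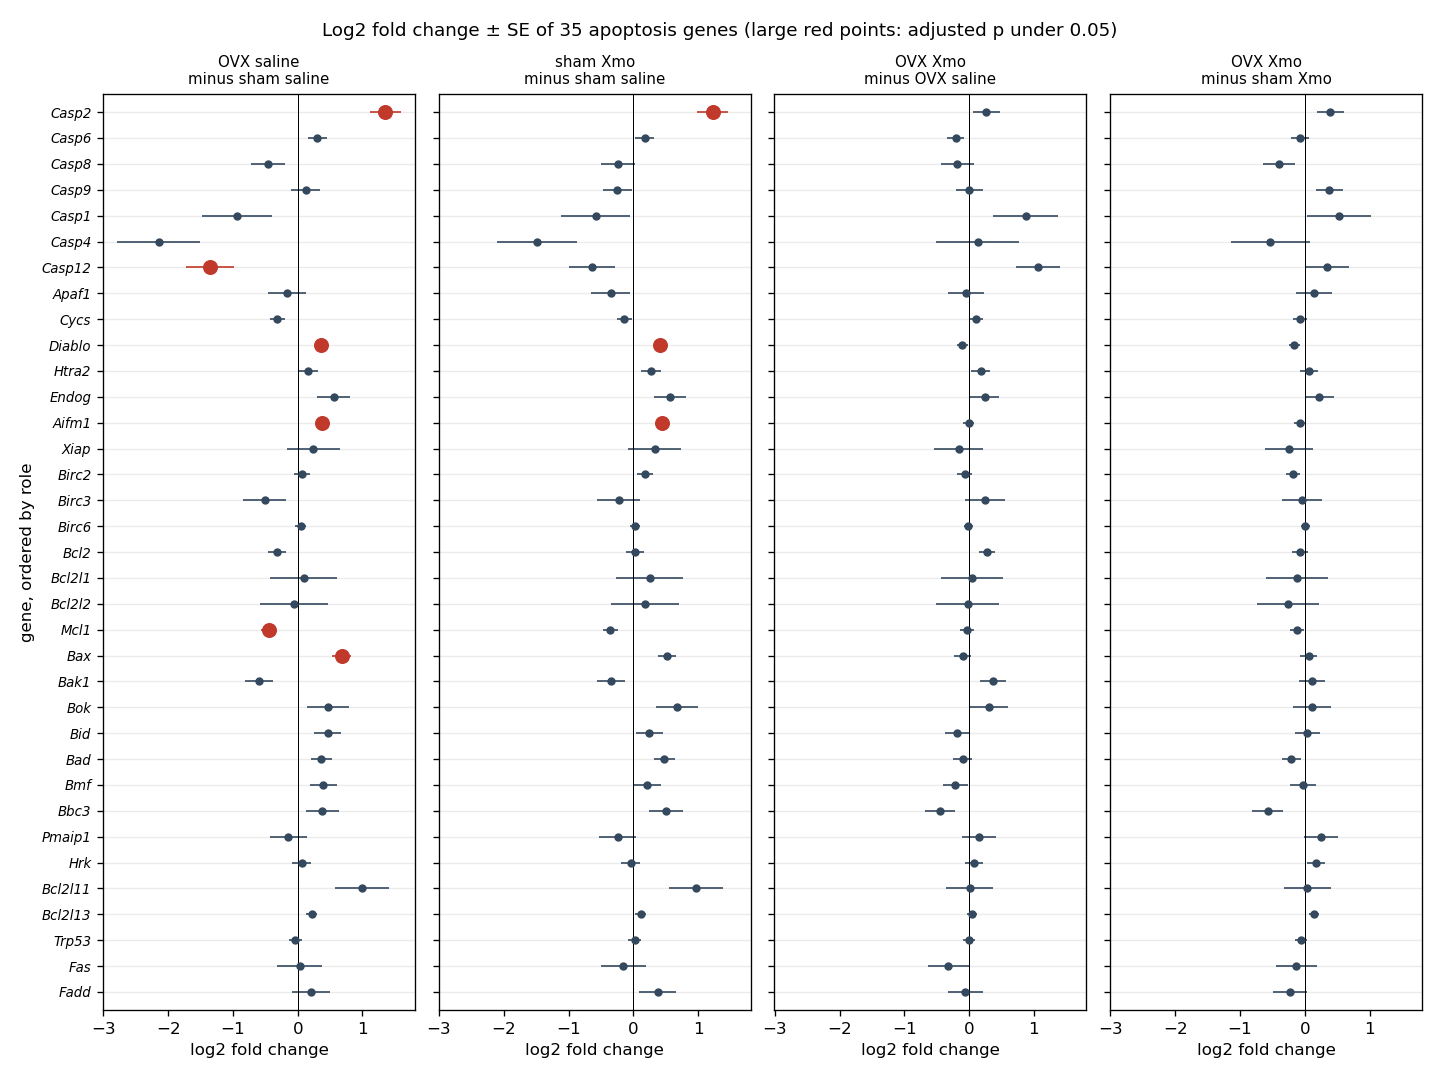
Each point is the log2 fold change of 1 of the 35 tested apoptosis genes and each bar its standard error, with a panel for each of 4 comparisons and the genes ordered by role. Large red points passed edgeR's test (adjusted p under 0.05): 6 in OVX saline against sham saline, 3 in sham Xmo against sham saline and none in the panels of OVX Xmo against OVX saline and against sham Xmo.

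Upstream sequence is shown for 4 of the 6 genes that changed, 3 that rose and 1 that fell, so that what they share and do not share before the start site can be read directly. The 250 bases before the start are from RefSeq (GRCm38.p6), read 5′ to 3′ on the gene's own strand, for Casp2 (chr6:42264735-42264984, plus strand), Bax (chr7:45466899-45467148, minus strand), Aifm1 (chrX:48513564-48513813, minus strand) and Mcl1 (chr3:95658471-95658720, plus strand). The RefSeq start used for Mcl1 lies upstream of the gene position given below (chromosome 3:95658788-95663176), so its stretch does not end next to that position. Capitals mark GC boxes (GGGCGG or its complement CCGCCC) and CCAAT boxes (CCAAT or ATTGG).
Casp2: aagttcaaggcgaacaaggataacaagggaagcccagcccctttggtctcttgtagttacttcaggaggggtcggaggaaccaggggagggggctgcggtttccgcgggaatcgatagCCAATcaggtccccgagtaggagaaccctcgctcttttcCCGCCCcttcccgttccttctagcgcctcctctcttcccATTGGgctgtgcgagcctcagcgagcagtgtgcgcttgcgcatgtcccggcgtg
Bax: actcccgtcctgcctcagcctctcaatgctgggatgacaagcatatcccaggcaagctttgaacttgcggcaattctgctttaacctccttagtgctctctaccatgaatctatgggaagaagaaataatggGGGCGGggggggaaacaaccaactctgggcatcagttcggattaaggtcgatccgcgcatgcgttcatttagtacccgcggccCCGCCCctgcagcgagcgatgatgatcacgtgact
Aifm1: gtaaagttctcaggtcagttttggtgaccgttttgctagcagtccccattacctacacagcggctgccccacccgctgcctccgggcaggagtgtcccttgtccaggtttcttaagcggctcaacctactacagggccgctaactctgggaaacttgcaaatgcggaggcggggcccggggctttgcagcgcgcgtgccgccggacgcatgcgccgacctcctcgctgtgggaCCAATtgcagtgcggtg
Mcl1: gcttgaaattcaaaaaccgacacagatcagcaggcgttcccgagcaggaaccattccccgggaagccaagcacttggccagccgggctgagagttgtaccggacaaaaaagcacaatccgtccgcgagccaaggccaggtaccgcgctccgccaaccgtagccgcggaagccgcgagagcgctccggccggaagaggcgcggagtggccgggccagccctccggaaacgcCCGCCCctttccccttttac
Casp2 held a GC box and 2 CCAAT boxes in this stretch, Bax held 2 GC boxes, Aifm1 held 1 CCAAT box and Mcl1 held 1 GC box. So no marked element was common to the 3 genes shown that rose. Diablo also rose but is not shown, and both a GC box and a CCAAT box were found for it in the wider windows described next. Over windows of 300 bases (250 before to 50 after the start, both strands), RefSeq had 45 promoters for 33 of the 36 genes and 32851 in all. A GC box was present in 28 of the 45 (62.2%) against 35.7% of all promoters, and CCAAT in 33.3% against 37.4%. The median GC content was 60.3% in the 45 and 52.7% in all promoters; no allowance was made for it in these shares. TATAAA was present in 4.44% against 13.6%. The full palindromic estrogen response element was in none of the 45 windows and in 0.07% of all, and AGGTCA, 1 arm of it, was in 13.3% against 16.3%. The Aifm1 window held 1 AGGTCA, which started 239 bases before the start. The p53 core element, searched as a single arm, was in 8.89% against 8.36%, and the Bax window held 1, which started 201 bases before the start. These matches describe letters in a window and say nothing about binding.

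Among the initiator and executioner caspases (Casp2, Casp6, Casp8 and Casp9), 1 of 4 rose after ovariectomy and none fell. Casp2 encodes the initiator caspase that is activated on the PIDDosome platform, and its gene (ENSMUSG00000029863) lies at chromosome 6:42264985-42282508 on the plus strand (GRCm38.p6, as are all positions here). Its level was 4.12, 2.98 and 3.20 CPM in the sham saline libraries. It was 7.59, 10.9, 9.50 and 7.20 CPM in OVX saline, 6.27, 6.72, 12.3 and 7.003 CPM in sham Xmo, and 11.2, 9.74, 9.57 and 11.9 CPM in OVX Xmo. Every library of the other 3 groups lay above every sham saline library. The lowest of those 12 libraries, sham Xmo 1 (6.27 CPM), had a mitochondrially encoded share of 19.2%, the highest of its group. Among the sham saline libraries this share was 19.0% where Casp2 was highest (4.12 CPM) and 34.1% where it was lowest (2.98 CPM). The remaining sham saline library lay between them in both. In both OVX groups the order was the other way at 1 end. OVX Xmo 4 had the highest share of its group (16.5%) and the highest Casp2 (11.9 CPM). OVX saline 4 had the lowest share of its group (11.9%) and the lowest Casp2 (7.20 CPM). A link between Casp2 and this share was not tested.

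Casp2 was 2.55-fold higher in OVX saline than in sham saline (log2 fold change 1.35, SE 0.24; edgeR adjusted p = 0.0138). It was 2.34-fold higher in sham Xmo (1.23, SE 0.24; edgeR adjusted p = 0.0256) and 3.07-fold higher in OVX Xmo (1.62, SE 0.24; edgeR adjusted p = 0.0269), both against sham saline. On average Casp2 was at 8.80 ± 1.73 CPM for OVX saline and 10.6 ± 1.12 CPM in OVX Xmo (SD, n = 4 each), against 3.43 ± 0.606 CPM in sham saline (SD, n = 3). Between OVX Xmo and OVX saline it did not pass (0.27, SE 0.21, 95% interval −0.17 to 0.71; edgeR adjusted p = 0.998). The interaction, the Xmo difference after ovariectomy less the Xmo difference after sham surgery, was −0.96 (SE 0.31) and did not pass either (edgeR adjusted p = 0.143). The call in OVX saline was just lost without sham saline 2 (log2 fold change 1.25, edgeR adjusted p = 0.0506) or without sham saline 3 (1.303, edgeR adjusted p = 0.0510). The call in sham Xmo was also lost without either of these or without sham Xmo 3 or 4, and that in OVX Xmo also without OVX saline 3 or OVX Xmo 1, 2 or 3.

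The other members of this group did not pass. Casp9, the caspase of the apoptosome, was at 18.1 to 19.2 CPM in the sham saline group and 17.5 to 21.6 CPM in OVX saline. Its lowest library was sham Xmo 3, at 8.46 CPM, which was also the highest library for Casp2. Casp6, an executioner caspase studied for its action in axons, was at 4.06 to 4.44 CPM in the sham saline group and 4.58 to 5.74 CPM in OVX saline, without overlap (log2 fold change 0.30, SE 0.15; edgeR adjusted p = 0.211). Casp8, the initiator of the death receptor route, was at 1.72 to 4.47 CPM in sham saline, a range that held every OVX saline library.

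The inflammatory caspases, whose genes stand side by side on chromosome 9, were low, and 1 of 3 fell after ovariectomy. Casp12, a caspase of the endoplasmic reticulum (ENSMUSG00000025887, chromosome 9:5345430-5373032), was at 1.26, 1.73 and 0.944 CPM in sham saline. It was at 0.726, 0.544, 0.521 and 0.203 CPM in OVX saline, all below sham saline, and at 0.755, 0.842, 1.45 and 1.27 CPM in OVX Xmo, all above OVX saline. The sham Xmo libraries were at 0.745, 0.876, 0.728 and 0.990 CPM and overlapped with sham saline.

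The fall of Casp12 in OVX saline was −1.35 on the log2 scale (SE 0.37; edgeR adjusted p = 0.0427), on 5 to 29 counts in OVX saline and 23 to 36 in sham saline. This call was lost without any 1 sham saline library, without sham Xmo 2 or 3, or without OVX saline 2, 3 or 4. The difference between OVX Xmo and OVX saline was 1.06 (SE 0.34, 95% interval 0.33 to 1.80) and did not pass over all genes (edgeR adjusted p = 0.998). The interaction of 1.70 (SE 0.49) did not pass by edgeR (adjusted p = 0.111) and passed in DESeq2. On the deposited TPM scale the OVX saline libraries overlapped with sham saline (0.156 to 0.605 against 0.451 to 0.761 TPM).

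Casp4, which senses bacterial lipopolysaccharide inside cells, had the lowest fold change of the 35 genes in OVX saline (−2.14, SE 0.64) without passing (edgeR adjusted p = 0.0585). Its values were 0.489, 3.22 and 0.944 CPM in the sham saline group and 0.150, 0.204, 0.260 and 0.813 CPM in OVX saline, so the groups overlapped. The neutrophil marker sums of the sham saline libraries were 8.91, 141 and 16.9 CPM in the same order. In OVX saline it was the other way: OVX saline 4, highest for Casp4 (0.813 CPM), had the lowest neutrophil sum (0.0813 CPM). A link with Casp4 was not tested. Casp1, the caspase that matures interleukin-1β, was at 0.908, 0.817 and 3.90 CPM in the sham saline group and at 0.813 to 1.20 CPM in OVX saline. Its level was high in 1 sham saline library, the third, where the neutrophil sum was 16.9 CPM.

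Of the 6 genes of the apoptosome and of mitochondrial release, 2 rose after ovariectomy, the same 2 rose in sham Xmo, and none fell. Diablo encodes SMAC, which leaves mitochondria and blocks the inhibitors of apoptosis (ENSMUSG00000029433, chromosome 5:123509765-123525488, minus strand). Its level was 26.5, 25.5 and 25.4 CPM in the 3 sham saline libraries, 34.7, 33.3, 32.9 and 31.2 CPM in OVX saline, 35.5, 32.4, 34.3 and 35.3 CPM in sham Xmo, and 32.7, 34.6, 28.3 and 27.5 CPM in OVX Xmo. All 12 libraries of the other 3 groups lay above sham saline. Gm15751, on the opposite strand, overlaps 27.0% of the gene and had 83 counts on average, against 977 for Diablo. The rise was 0.36 in OVX saline (SE 0.09; edgeR adjusted p = 0.0360) and 0.42 in sham Xmo (SE 0.09; edgeR adjusted p = 0.0388). When 1 library was left out at a time, the call in OVX saline held in 4 of 15 fits (without sham Xmo 1 or OVX Xmo 2, 3 or 4), and that in sham Xmo in 3 of 15 (without sham Xmo 1 or OVX Xmo 2 or 4).

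Aifm1 encodes AIF, a flavoprotein of the inner mitochondrial membrane that supports respiratory complex I and can move to the nucleus in cell death (ENSMUSG00000036932, chromosome X:48474944-48513563, minus strand). It was at 18.8, 16.2 and 16.3 CPM in the 3 sham saline libraries, 20.8, 21.9, 24.2 and 22.1 CPM in OVX saline, 23.3, 24.7, 22.4 and 22.5 CPM in sham Xmo, and 22.1, 24.6, 20.001 and 21.9 CPM in OVX Xmo. As with Diablo, no library of the other 3 groups reached down to sham saline. The rise was 0.38 in OVX saline (SE 0.10; edgeR adjusted p = 0.0365) and 0.44 in sham Xmo (SE 0.10; edgeR adjusted p = 0.0392). Each of these calls held in 4 of 15 fits with 1 library left out (without sham saline 1, sham Xmo 1, OVX Xmo 2 or OVX Xmo 4). In OVX Xmo against sham saline neither gene passed, at 0.26 for Diablo (edgeR adjusted p = 0.153) and 0.37 for Aifm1 (edgeR adjusted p = 0.0696). The interaction was −0.52 for Diablo (SE 0.12; edgeR adjusted p = 0.0688) and −0.45 for Aifm1 (SE 0.13; edgeR adjusted p = 0.117).

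The 4 others of this group did not pass. Cycs lay at 132 to 146 CPM in the sham saline group and 104 to 120 CPM in OVX saline, lower without overlap (−0.32, SE 0.12; edgeR adjusted p = 0.113). Endog, a mitochondrial nuclease, was at 3.98 to 5.19 CPM in the sham saline group and 5.81 to 8.33 CPM in OVX saline, higher without overlap (0.56, SE 0.25; edgeR adjusted p = 0.184). Apaf1, the scaffold of the apoptosome, and Htra2, a mitochondrial protease, overlapped between these groups. The Htra2 gene overlaps with Aup1 and Loxl3, and Endog with Spout1, on the opposite strand, so without known strand use their reads could be shared.

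**Figure D2:**
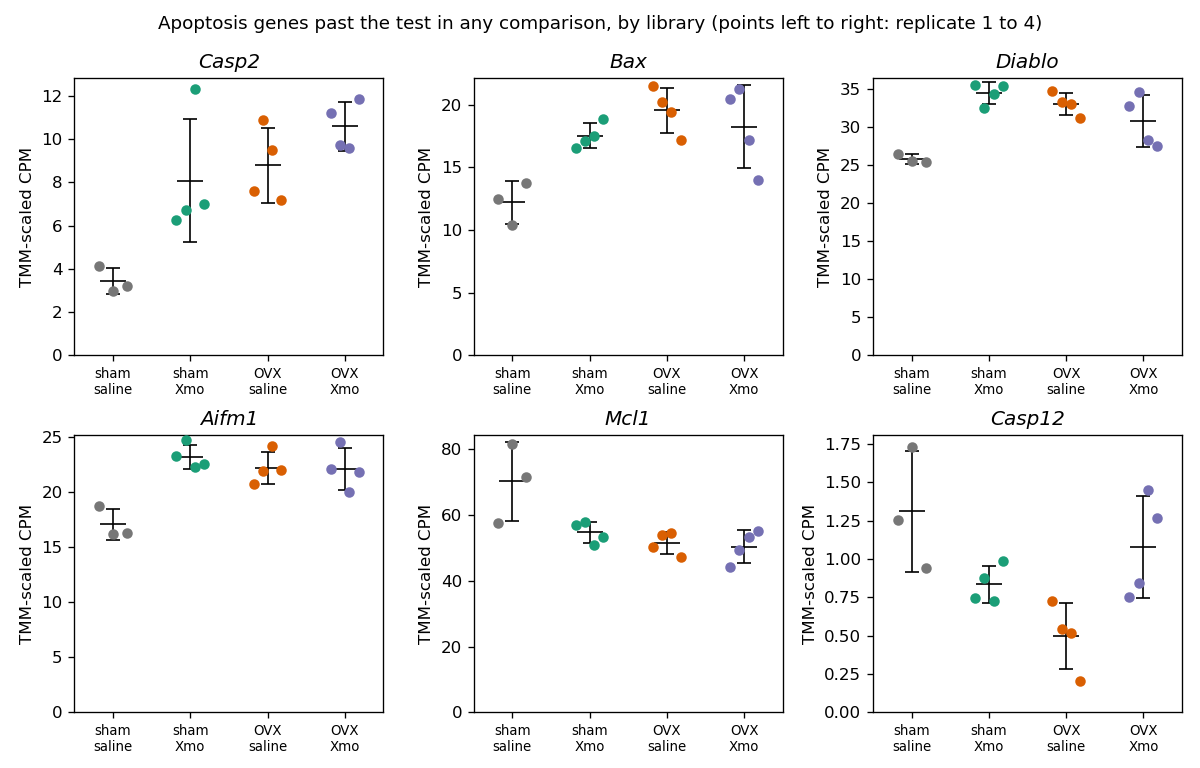
TMM-scaled CPM of the 6 apoptosis genes that passed in any comparison, with a point for each library, a line for the group mean and bars for the SD (n = 3 in sham saline, n = 4 elsewhere). For Casp2, Bax, Diablo and Aifm1 all points of the other 3 groups lie above the 3 sham saline points.

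Among the protective BCL2 proteins, 1 of 4 fell after ovariectomy and none rose. Mcl1 encodes a short-lived survival protein that neurons and many blood cells need (ENSMUSG00000038612, chromosome 3:95658788-95663176, plus strand). Its level was 57.4, 81.4 and 71.5 CPM in the 3 sham saline libraries, 50.04, 53.8, 54.3 and 47.2 CPM in OVX saline, 56.8, 57.7, 50.9 and 53.1 CPM in sham Xmo, and 44.0, 49.2, 53.3 and 54.9 CPM in OVX Xmo. Both OVX groups lay below every sham saline library, while sham Xmo reached above the lowest of them.

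Mcl1 fell by 0.45 on the log2 scale in OVX saline (SE 0.11; edgeR adjusted p = 0.0344), from 70.1 ± 12.1 (SD, n = 3) to 51.3 ± 3.37 CPM (SD, n = 4). The values in sham Xmo (−0.36; edgeR adjusted p = 0.112) and OVX Xmo (−0.48; edgeR adjusted p = 0.0524) against sham saline did not pass. This direction rests on the scaling: the OVX saline difference was −0.10 without scaling factors (edgeR adjusted p = 0.468) and turned to 0.18 on the deposited TPM (limma adjusted p = 0.272). These 2 scales put the median of all genes in that comparison at 0.33 and 0.61, so Mcl1 stayed below the median gene on both. The call was lost without sham saline 2 or 3 or without any 1 OVX saline library.

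Bcl2, the founding member of the family, lay at 11.1 to 12.6 CPM in the sham saline group, 8.95 to 10.2 CPM in OVX saline and, with Xmo after ovariectomy, at 10.8 to 12.7 CPM. It was lower in OVX saline without overlap (−0.32, SE 0.13; edgeR adjusted p = 0.161) and higher in OVX Xmo than in OVX saline without overlap (0.27, SE 0.12; edgeR adjusted p = 0.998). Casp12 and Bcl2 were the only 2 of the 35 genes whose OVX Xmo and OVX saline libraries did not overlap, where 3.11% of all tested genes did not overlap.

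Bcl2l1 (BCL-XL) and Bcl2l2, with the caspase inhibitor Xiap, fell into separate levels among the libraries of a group, a pattern picked out after their values were seen. Bcl2l1 was at 51.3 to 65.8 CPM in 5 libraries (sham saline 1, sham Xmo 3, sham Xmo 4, OVX saline 3 and OVX Xmo 3) and at 19.5 to 26.5 CPM in the other 10, with none between. Bcl2l2 was low in OVX saline 2 (20.6 CPM) and OVX Xmo 4 (14.2 CPM), and at 71.6 to 103 CPM in all others. Xiap was at 30.9 to 37.4 CPM in 5 libraries (sham saline 1, sham Xmo 1, OVX saline 2, OVX Xmo 1 and OVX Xmo 4) and at 58.6 to 96.5 CPM in the rest.

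The high and low libraries were not the same for the 3 genes, and each group had libraries at both levels of Bcl2l1 and of Xiap. Ranked among 10067 genes with a median of at least 10 CPM, a gap as wide as that of Bcl2l2 (3.48-fold, with at least 2 libraries on each side) was found in 0.209% of genes. For the gap of Bcl2l1 (1.94-fold) this share was 1.05%, and for that of Xiap (1.57-fold) 2.29%. The deposited TPM showed the levels of Bcl2l1 and put sham saline 2 and 3 with the low libraries of Xiap (10.998 and 12.3 TPM). For Bcl2l2 the 2 low libraries were at 15.95 TPM (OVX saline 2) and 9.61 TPM (OVX Xmo 4), but sham saline 2 followed at 22.2 TPM, so its gap was narrower on that scale. The Bcl2l2 gene overlaps Gm20521 on the same strand over 98.7% of its span. Gm20521 had 106 counts on average, against 2544 for Bcl2l2. It was at 0 CPM in OVX saline 2, at 2.01 CPM in OVX Xmo 4 and at 0 to 7.72 CPM over the 15 libraries. Gm20521 was also at 0 CPM in sham saline 3, sham Xmo 3 and sham Xmo 4, where Bcl2l2 was at 84.5, 87.4 and 85.7 CPM. How reads were divided between these genes is not stated, and a part of the overlap in the levels was not tested. No overlapping gene was found for Bcl2l1 or Xiap. Standard errors of these 3 genes were wide, at 0.52 for Bcl2l1 and Bcl2l2 and 0.41 for Xiap in OVX saline against sham saline, so a 1.5-fold group difference in them was not detectable here.

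**Figure D3:**
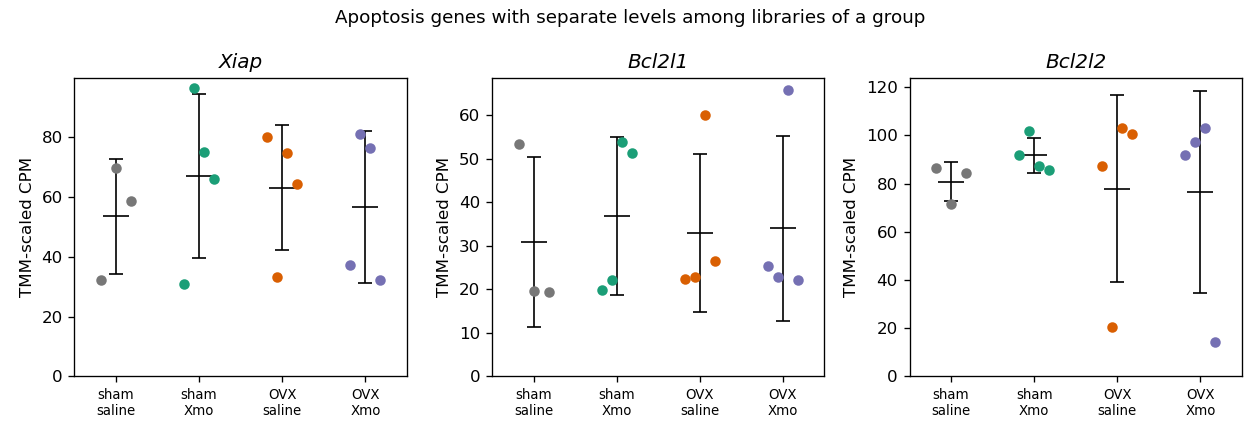
TMM-scaled CPM of Xiap, Bcl2l1 and Bcl2l2 by library, with group means and SD bars (n = 3 in sham saline, n = 4 elsewhere). Points of Xiap and Bcl2l1 fall into an upper and a lower band in each group. For Bcl2l1 these bands are at 51.3 to 65.8 and 19.5 to 26.5 CPM. For Bcl2l2 only OVX saline 2 (20.6 CPM) and OVX Xmo 4 (14.2 CPM) are low.

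The inhibitors of apoptosis (Xiap, Birc2, Birc3 and Birc6) had no member past the test in any comparison. Closest was Birc2, the ubiquitin ligase cIAP1, at 46.1, 33.2, 37.1 and 34.1 CPM in sham Xmo and 32.4, 34.99, 29.5 and 35.7 CPM in OVX Xmo (−0.18, SE 0.11; edgeR adjusted p = 0.613). These groups overlapped, with 1 high library in sham Xmo. Birc6 varied little, between 147 and 177 CPM over all 15 libraries.

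Of the pore formers, 1 of 3 rose after ovariectomy. Bax encodes the protein that opens the outer mitochondrial membrane (ENSMUSG00000003873, chromosome 7:45461697-45466898, minus strand). Its level was 12.5, 10.4 and 13.8 CPM in the 3 sham saline libraries, 21.5, 20.2, 19.4 and 17.2 CPM in OVX saline, 16.6, 17.1, 17.5 and 18.9 CPM in sham Xmo, and 20.5, 21.3, 17.2 and 14.02 CPM in OVX Xmo. All 12 libraries of the other 3 groups lay above sham saline, the lowest (OVX Xmo 4) by little.

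Bax was 1.60-fold higher in OVX saline (log2 fold change 0.68, SE 0.14; edgeR adjusted p = 0.0203). The differences in sham Xmo (0.52, SE 0.14; edgeR adjusted p = 0.0785) and OVX Xmo (0.58, SE 0.14; edgeR adjusted p = 0.0611) against sham saline did not pass. Xmo in OVX mice left it at −0.10 against OVX saline (95% interval −0.38 to 0.18; edgeR adjusted p = 0.998). The interaction was −0.62 (SE 0.19; edgeR adjusted p = 0.135). The call of Bax in OVX saline was lost without sham saline 2 or 3 or without OVX saline 1 or 2 (edgeR adjusted p = 0.0510 to 0.0791).

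The other pore genes did not pass. Bak1, the partner of Bax, was at 18.8 to 23.6 CPM in the sham saline group and 7.61 to 19.7 CPM in OVX saline (−0.59, SE 0.22; edgeR adjusted p = 0.107). The Bak1 gene lies wholly within Ggnbp1 on the opposite strand, so its counts are uncertain without known strand use. Bok, a relative with its own mode of control, ranged from 15.6 to 55.9 CPM and overlapped between OVX saline and sham saline.

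None of the 8 tested BH3-only genes and other pro-apoptotic relatives passed in any comparison. In OVX saline against sham saline 7 of 8 had positive fold changes, with a median of 0.37, where 10089 of all 19969 tested genes had positive ones. Bad, which links growth factor signals to the BCL2 proteins, was at 12.3, 11.9 and 12.3 CPM in the sham saline group and 13.8, 13.8, 18.8 and 21.2 CPM in sham Xmo, higher without overlap (0.47, SE 0.16; edgeR adjusted p = 0.137). Bcl2l11 (BIM), a killer of neurons that lose trophic support, was at 0.803, 1.97 and 3.86 CPM in sham saline, so widely spread that its fold change of 0.99 in OVX saline did not pass (SE 0.42; edgeR adjusted p = 0.155). Bid, which carries the death receptor signal to mitochondria, was higher without overlap in OVX saline (0.46, SE 0.21; edgeR adjusted p = 0.194), as was Bcl2l13, a mitochondrial relative (0.21, SE 0.09; edgeR adjusted p = 0.147).

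Bbc3, the p53 target PUMA, was at 4.20 to 7.57 CPM in sham Xmo and 3.02 to 4.34 CPM in OVX Xmo (−0.57, SE 0.24; edgeR adjusted p = 0.433). It was the 1 gene of the 35 at an unadjusted p under 0.05 in OVX Xmo against sham Xmo, where 10.2% of all tested genes were. Hrk, a BH3-only gene best known in neurons, was at 26.7 to 44.5 CPM, with fold changes between −0.04 and 0.17 in the 5 group comparisons. Bmf and Pmaip1 (NOXA) were at 1.11 to 4.65 CPM and did not pass.

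Trp53 was nearly level, at 24.5 to 27.7 CPM in the sham saline group and 24.3 to 25.5 CPM in OVX saline (−0.04, SE 0.10, 95% interval −0.26 to 0.18; edgeR adjusted p = 0.860). Fadd, the adaptor that joins death receptors to caspase-8, had the smallest p of this group, in sham Xmo against sham saline, and did not pass (0.37, SE 0.29; edgeR adjusted p = 0.532). It was at 2.13, 0.961 and 1.77 CPM in the sham saline group and 1.96, 2.31, 1.52 and 2.62 CPM in sham Xmo, which overlap. Fas, a death receptor, was at 1.01 to 3.27 CPM across the libraries and did not pass.

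Over the whole list, 22 of 35 genes had positive fold changes in OVX saline against sham saline, and the median was 0.09, against 0.01 for all tested genes. Groups did not overlap for 13 of the 35 genes (9 higher and 4 lower), where 24.5% of all tested genes did not overlap (12.9% higher and 11.6% lower). In sham Xmo against sham saline the median was 0.17, against 0.03 for all genes, and 7 of 35 did not overlap, where 14.2% of all genes did not. In OVX Xmo against sham saline the median was 0.08, against 0.01, and 7 did not overlap, where 14.9% of all genes did not. None of the 35 was without overlap in OVX Xmo against sham Xmo, where 5.88% of all tested genes were.

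Between OVX Xmo and OVX saline the median of the 35 genes was 0.00, with 17 higher and 18 lower, and all genes had a median of 0.00. By edgeR 2 of the 35 were at an unadjusted p under 0.05 (Casp12 and Bcl2), where 4.18% of all tested genes were, and DESeq2 called none. For the interaction the median was −0.16, against −0.02 for all genes, and 8 of 35 were at an unadjusted p under 0.05, where 17.4% of all genes were. None of the 8 passed by edgeR after adjustment, where 0.416% of all tested genes passed, and DESeq2 called 2 (Casp12 and Diablo).

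Ratios within a library do not depend on the scaling factor, and the balance of Bax to its protective partners is therefore given as a description, with the pairs chosen after values were seen. The counts of Bax divided by those of Bcl2 were 0.989, 0.874 and 1.24 in sham saline and 2.39, 2.02, 1.91 and 1.92 in OVX saline. They were 1.10, 1.37, 1.71 and 1.80 in sham Xmo and 1.89, 1.92, 1.51 and 1.10 in OVX Xmo. Every OVX saline library lay above every sham saline library, while the Xmo groups reached down to the sham saline range. The Bax to Mcl1 ratio was 0.128 to 0.217 in sham saline, 0.292 to 0.356 in sham Xmo, 0.357 to 0.429 in OVX saline and 0.255 to 0.465 in OVX Xmo, with sham saline below all the others. In OVX saline against sham saline, Bax was higher and Bcl2 and Mcl1 were lower without overlap. The separation of both ratios there thus followed from the choice of pairs and is no separate evidence.

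**Figure D4:**
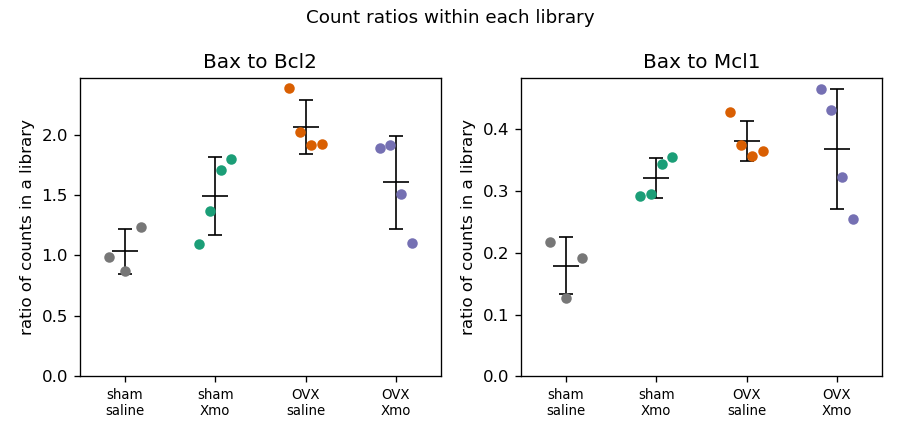
Counts of Bax divided by counts of Bcl2 (left) and of Mcl1 (right) in each library, with group means and SD bars (n = 3 in sham saline, n = 4 elsewhere). The sham saline points, at 0.874 to 1.24 and 0.128 to 0.217, lie below every OVX saline point. The pairs were chosen after values were seen.

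Around these genes, 86 other genes of the cell death pathways were listed, of which 78 were tested. In OVX saline against sham saline 5 of the 78 rose and 2 fell, where 6.24% of all tested genes passed (3.65% up and 2.59% down). The median of the 78 was −0.14, against 0.01 for all tested genes. Dffa, the inhibitor and chaperone of the caspase-activated DNase, rose, with 25.2 ± 0.974 CPM for sham saline (SD, n = 3) and 34.96 ± 1.76 CPM for OVX saline (SD, n = 4; log2 fold change 0.47, SE 0.09; edgeR adjusted p = 0.0142). Slc25a5, an ADP/ATP carrier of the inner mitochondrial membrane, rose by 0.43 (SE 0.09; edgeR adjusted p = 0.0183), and Vdac2, an outer membrane channel that binds BAK, by 0.30 (SE 0.08; edgeR adjusted p = 0.0370). Tradd, an adaptor of the TNF receptor, rose by 1.05 (SE 0.22; edgeR adjusted p = 0.0190), and Phlda3, a p53 target that restrains AKT, by 0.65 (SE 0.18; edgeR adjusted p = 0.0485).

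The 2 that fell were Tnfsf10, the death ligand TRAIL (−0.999, SE 0.22; edgeR adjusted p = 0.0235), and Zmat3, an RNA-binding p53 target (−0.46, SE 0.12; edgeR adjusted p = 0.0364). Of 16 regulators and targets of p53, 1 rose, 1 fell and 14 did not pass. None of 9 tested inflammasome and pyroptosis genes and none of 8 genes of death by endoplasmic reticulum stress passed there. In sham Xmo 2 of the 78 rose, Slc25a5 (0.45; edgeR adjusted p = 0.0263) and Sesn1, a p53 and FOXO target (0.42; edgeR adjusted p = 0.0490), where 1.51% of all tested genes passed. In OVX Xmo against sham saline Dffa (0.44; edgeR adjusted p = 0.0335) and Slc25a5 (0.40; edgeR adjusted p = 0.0418) were higher, where 1.19% of all tested genes passed, and none of the 78 passed in the other comparisons.

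How many of the 35 genes passed depended on the sham saline libraries and on the scale. Without sham saline 2 or without sham saline 3, no gene of the list passed in any comparison. Without scaling factors 14 of the 35 passed in OVX saline against sham saline, 13 of them higher, where 4799 of all 19969 genes passed (4618 higher). On the deposited TPM with limma 19 passed, all of them higher, where 9609 of all genes passed (9516 higher). As reported, 728 of 1246 genes past the test were higher.

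**Figure D5:**
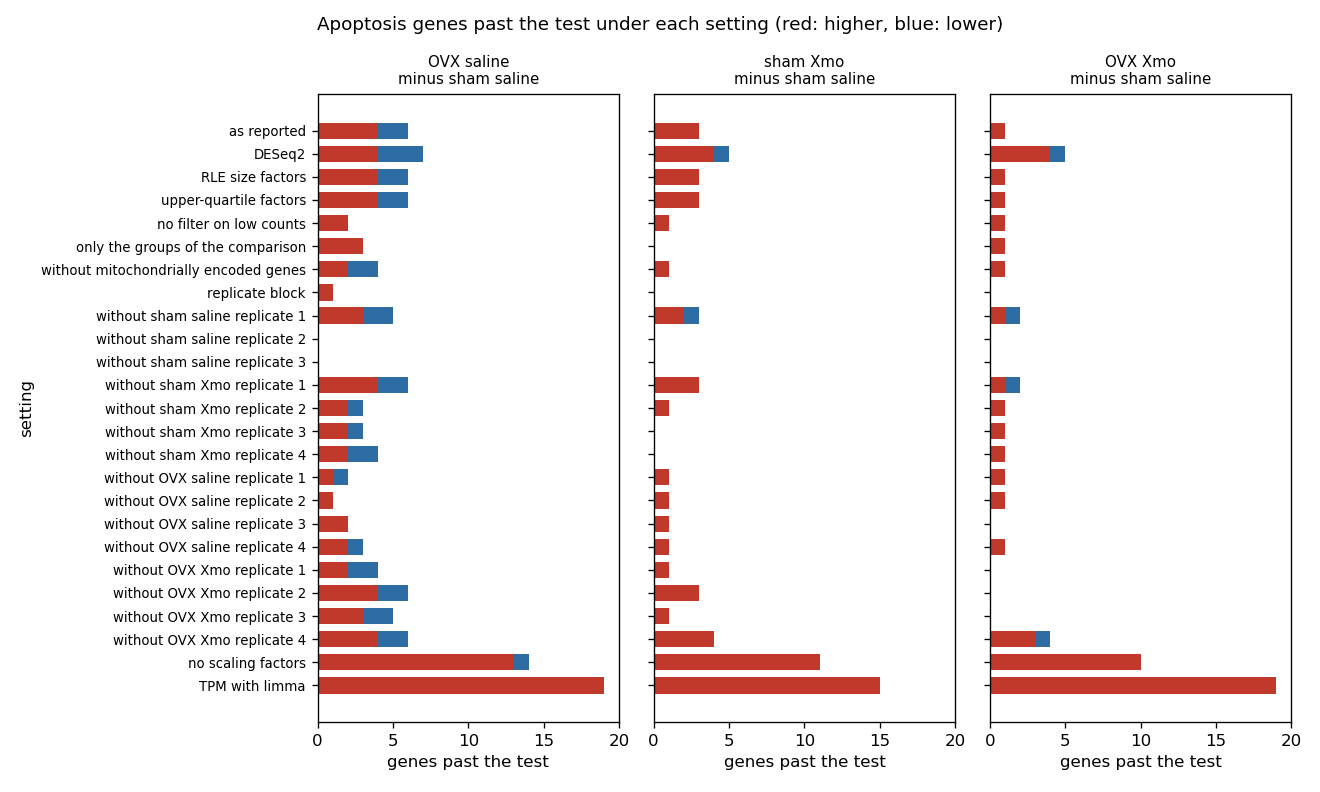
Number of the 35 apoptosis genes past the test (adjusted p under 0.05; red higher, blue lower) under each setting, for the 3 comparisons with sham saline. OVX saline against sham saline has 6 as reported, 0 without sham saline 2 or 3, and 19 on TPM with limma.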

How the data were processed

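RNA from 15 hippocampus samples was analysed, and the 12 miRNA libraries of the series were not analysed here. The gene table held whole-number counts and TPM per sample, as deposited by the authors, per the file headers. Per the submitters' processing notes, the tools were Bowtie2 2.3.2 and StringTie 1.3.3b, with Trimmomatic 0.36 and FastQC 0.11.2, on the build GRCm38.p6; which of them made the counts, and whether strand was used, is not stated there. A further 12 per-sample columns of counts and TPM matched no sample and were not used.

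From the counts, genes were kept with filterByExpr by group, scaled by TMM and fitted with edgeR 4.0.16 (glmQLFit, glmQLFTest; R 4.3.3) on 4 groups with 11 residual degrees of freedom. The 6 comparisons were adjusted by Benjamini-Hochberg over all 19969 genes, with a threshold of 0.05. Standard errors are the fold change over the root of its F value. The fit was tested on simulated counts. Alternatives used DESeq2 1.42.0, other scaling, filters and sample sets, and limma 3.58.1 on log2(TPM + 0.1), whose fold changes understate low genes; the unscaled and the TPM alternatives were chosen after seeing the data.

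The 36 genes and the lists were chosen with earlier results of these data known. By rule, genes past the test in any comparison are given in every library, with Casp2 and Bax; in a role without one, the gene with the smallest p is named and said not to pass, and other pathway genes past the test are named up to 10 per comparison. Values for other genes were picked after they were seen. Libraries were not identical in any pair. Protein sequences were not used here, and promoters stand in their place.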

Additional observations from a re-analysis of the deposited data

Results flagged for a closer look

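Within groups of 4 libraries, a gap test (Dixon's, 95% level) marked 1 library as far from the other 3 in 7 of 105 gene and group pairs, where chance marks about 1 in 20. Casp2 was at 12.3 CPM in sham Xmo 3, against 7.003 CPM in the nearest library, and without that library its difference from sham saline was 0.93 (edgeR adjusted p = 0.0539). Casp4 was at 0.813 CPM in OVX saline 4, against 0.260 CPM in the nearest. Bcl2l1 was at 60.1 CPM in OVX saline 3 and at 65.8 CPM in OVX Xmo 3, and Bcl2l2 at 14.2 CPM in OVX Xmo 4, which belong to the separate levels described above. Bak1 was low in OVX Xmo 4, at 15.8 CPM against 19.4 CPM in the nearest. Bok was high in OVX Xmo 2, at 55.9 CPM against 35.6 CPM. No mark was tested further, and the sham saline group of 3 libraries was not looked at in this way.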

How the results depend on the processing

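The comparisons of OVX Xmo with OVX saline and with sham Xmo had 0 of the 35 genes past the test under all 24 other settings. The 3 comparisons with sham saline did not keep their counts. In OVX saline against sham saline, 6 as reported became 2 with no low-count filter, 3 with only the groups compared, 1 with a replicate block (Casp2), 14 without scaling factors and 19 on TPM with limma. In sham Xmo, 3 became 5 with DESeq2, 1 with no filter, 0 with only the groups compared, 1 without mitochondrially encoded genes, 0 with the replicate block, 11 without scaling factors and 15 on TPM. In OVX Xmo against sham saline, 1 became 5 with DESeq2, 0 with the replicate block, 10 without scaling factors and 19 on TPM. For the interaction, 0 became 2 with DESeq2, 5 without scaling factors and 5 on TPM. Leaving out 1 library at a time gave 0 to 6 genes in OVX saline, 0 to 4 in sham Xmo and 0 to 4 in OVX Xmo against sham saline, and 0 to 0 in the other 3 comparisons; each went to 0 without sham saline 2 or sham saline 3. OVX saline against sham saline was also at 3 or fewer without sham Xmo 2, sham Xmo 3 or any 1 OVX saline library. The count in sham Xmo was also 0 without sham Xmo 3 or sham Xmo 4, and that in OVX Xmo against sham saline without OVX saline 3 or OVX Xmo 1, 2 or 3. Over all genes, OVX saline against sham saline had 1246 calls, 178 with the replicate block, 186 without sham saline 2 and 80 without sham saline 3.

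Fold changes of the genes past the test kept their direction under the other settings, except Mcl1, which turned to 0.18 on TPM with limma. Casp2 stayed past the test in 22 of 24 settings in OVX saline, 18 in sham Xmo and 17 in OVX Xmo, Bax in 19, Mcl1 in 13, Casp12 in 12, Diablo in 10 in OVX saline and 8 in sham Xmo, and Aifm1 in 9 in each. Same-numbered samples did not deviate together (21 pairs, correlation −0.21 to 0.19, 2 over 0.1), so the shared numbers were not taken as pairs. The unscaled and TPM settings put the median gene at 0.33 and 0.61 in OVX saline. Other causes were not tested.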
